A study of Mus musculus with 4 samples.

Results

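The genes described here form the machinery that decides whether a cell leaves G1, the phase before DNA replication. They are the D-type cyclin genes Ccnd2 and Ccnd3, the kinase genes Cdk4 and Cdk6, the CDK inhibitor genes Cdkn1a, Cdkn1b, Cdkn2a, Cdkn2c and Cdkn2d, and Rb1. All 10 were measured, by every probe set whose platform symbol is one of these names, which gave 25 of 45101 probe sets. Spleens of wild-type B6 mice, for which no treatment is listed, gave the sorted CD8 T cells, whose RNA was read on 4 Affymetrix arrays. Ly49+ cells, sorted as CD44+CD122+Ly49+ and called CD8+ Treg by the submitters, gave 2 arrays. Ly49- cells, sorted as CD44+CD122+Ly49- and called conventional memory cells, gave the other 2. The labels give neither age nor the number of animals, and do not say that replicates came from separate mice. The p-values therefore rest on the spread between arrays that may be technical replicates.

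D-type cyclins bind CDK4 and CDK6, and the active kinases phosphorylate the retinoblastoma protein, the product of Rb1. This releases E2F transcription factors, which switch on the genes of DNA replication. INK4 inhibitors, encoded by the Cdkn2 genes, bind CDK4 and CDK6, whereas the CIP/KIP inhibitors p21 and p27 act on several cyclin-CDK complexes, and p27 is known for holding T cells at rest.

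No G1 gene of the 10 passed the test between Ly49+ and Ly49- cells, and the measured differences were small. The test was limma across 18193 genes, each read by its brightest probe set, on log2(intensity + 16), adjusted by Benjamini-Hochberg and called at 0.05. Of the 10 genes, 0 were called and 0 had an unadjusted p under 0.05. Over all genes, 3.97% were called and 18.1% had an unadjusted p under 0.05. The median log2 fold change of the 10 genes, Ly49+ minus Ly49-, was 0.02 with a range of -0.10 to 0.16, beside -0.04 for all genes. For the 9 genes read above the highest bacterial control probe set (70.3, taken as a mark of signal without mouse target), which leaves out Cdkn2a, the 95% interval of the brightest probe set lay inside a 1.5-fold difference in either direction. Over all member probe sets this held for 23 of 25, the exceptions being a Ccnd3 and a Cdk6 probe set. The groups did not overlap in 3 of the 10, Ccnd3 and Cdkn2c being higher and Cdk4 lower in Ly49+ cells, against 48.4% of all genes (13.2% higher and 35.2% lower).

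**Figure D1:**
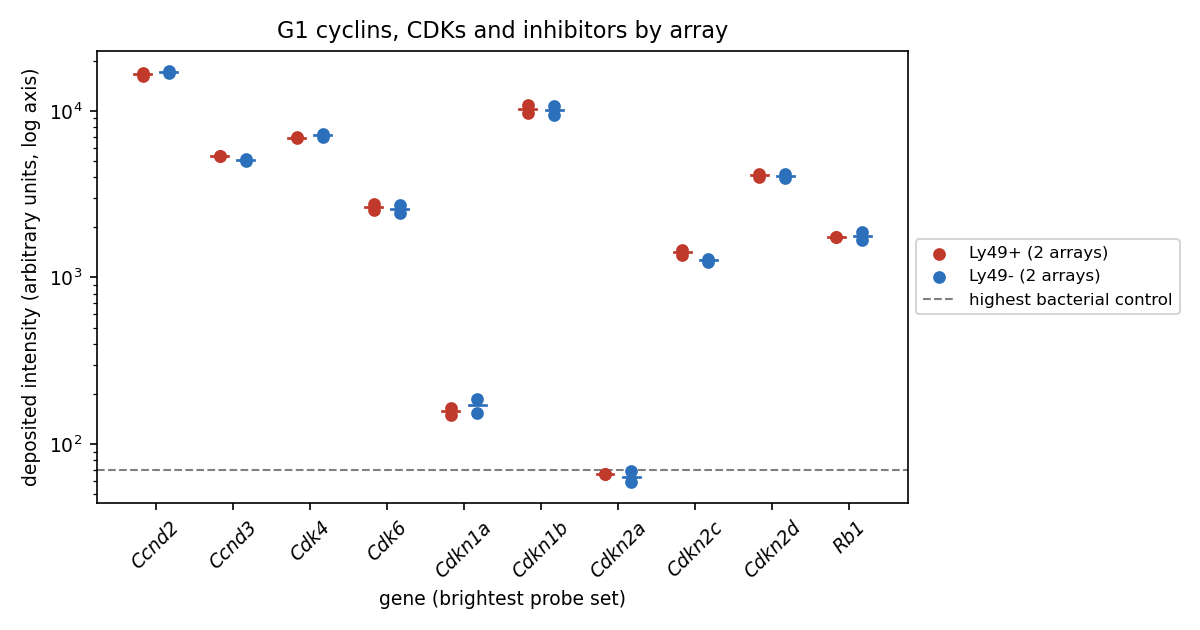
Deposited intensity (log axis) of the brightest probe set of each gene on the 2 Ly49+ arrays (red, left) and the 2 Ly49- arrays (blue, right), with a short line at each mean and a dashed line at the highest bacterial control (70.3). The arrays of both groups lie close together for every gene, and Cdkn2a lies below the dashed line on all 4. Heights of different genes are not comparable, since each probe set binds its target differently.

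The array medians lay between 188.5 and 190.4, and pairwise Pearson correlations across all probe sets, on the log2 scale, between 0.996 and 0.998. Arrays have no read depth, and their number limits the precision. The older 3' probe set of the spiked bioB control read 702 on Ly49- replicate 1 and between 2750.4 and 3084 on the other arrays, while its newer probe set read between 2833 and 3111 on all 4. For Actb, the 3' signal over the 5' signal came to 1.26 and 1.29 on Ly49+ arrays, against 1.37 and 1.34 on Ly49- arrays. For 18S rRNA, signal at the 5' end was 878 and 669 in Ly49+ cells, against 471 and 339 in Ly49- cells, and in the middle 16035 and 15592 in Ly49+ cells, against 17085 and 13373 in Ly49- cells. As a check of the sort, the Ly49 gene Klra7 read 8969 and 8895 in Ly49+ cells, against 910.2 and 900.1 in Ly49- cells. The 9 measured CD8 T-cell markers summed to 128725 to 129736 in Ly49+ and 127862 to 129840 in Ly49- arrays, and 0 of them passed the test, with 2 at an unadjusted p under 0.05.

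Cyclin D2 and cyclin D3 are the D-type cyclins best known from lymphocytes, and both were read brightly. Ccnd2 had intensities of 16226 and 16919.6 in Ly49+ cells, against 16827 and 17249 in Ly49- cells. The groups overlapped, and the log2 fold change was -0.04 ± 0.04 SE (95% interval -0.12 to 0.04, limma adjusted p = 0.63). Ccnd3 had 5367 and 5382 in Ly49+ cells, against 5002 and 5170 in Ly49- cells. Both Ly49+ arrays lay above both Ly49- arrays, with a log2 fold change of 0.08 ± 0.04 SE (95% interval -0.02 to 0.18, limma adjusted p = 0.40). For these brightest probe sets the intervals reached no further than a 1.13-fold difference, while other probe sets of both cyclins had wider ones.

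The catalytic partners differed as little. Cdk4 had 6928 and 6843 in Ly49+ cells, against 6937 and 7279 in Ly49- cells. The Ly49+ arrays lay just below the Ly49- arrays, by less than the Ly49- arrays differed from each other, and the log2 fold change was -0.05 (95% interval -0.14 to 0.05, limma adjusted p = 0.65). Cdk6, the other partner of the D cyclins, had 2547 and 2766 in Ly49+ cells, against 2452 and 2710 in Ly49- cells. In both groups replicate 2 was the brighter array, and the groups overlapped (log2 fold change 0.04, 95% interval -0.11 to 0.20, limma adjusted p = 0.81).

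Of the CIP/KIP inhibitors, Cdkn1b was bright and Cdkn1a dim in both groups, and neither passed the test. Cdkn1b, which encodes p27, had 10847 and 9739 in Ly49+ cells, against 10636 and 9452 in Ly49- cells. Replicate 1 was above replicate 2 in each group, by 0.16 in Ly49+ and 0.17 in Ly49- cells on the log2 scale, a larger step than the 0.04 between the groups (95% interval -0.11 to 0.19, limma adjusted p = 0.84). Cdkn1a, which encodes the p53 target p21, had 166 and 150.1 in Ly49+ cells, against 188 and 153 in Ly49- cells. These values lay above the highest bacterial control and the groups overlapped (log2 fold change -0.10, 95% interval -0.39 to 0.19, limma adjusted p = 0.76). That interval was the widest of the 10 genes and allows from a 0.763-fold to a 1.14-fold level in Ly49+ cells.

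Among the INK4 inhibitors, Cdkn2c had the smallest p of the 10 genes. Cdkn2c, which encodes p18, had 1471 and 1363 in Ly49+ cells, against 1233 and 1296 in Ly49- cells. Both Ly49+ arrays were above both Ly49- arrays, with a 1.12-fold difference (log2 fold change 0.16 ± 0.07 SE, 95% interval -0.003297 to 0.33, unadjusted p = 0.054, limma adjusted p = 0.29). Cdkn2d, which encodes the INK4 protein p19, had 4169 and 4023 in Ly49+ cells, against 4198 and 3941 in Ly49- cells. Its groups overlapped and had almost the same mean (log2 fold change 0.01, 95% interval -0.11 to 0.13, limma adjusted p = 0.95). Cdkn2a, which encodes both p16 and ARF from different first exons, was read at 66.3 and 65.9 in Ly49+ cells, against 58.9 and 68.7 in Ly49- cells. All 4 values were under that bacterial control and no fold is given, and whether the probe set reads p16, ARF or both was not analysed here (limma adjusted p = 0.88).

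Rb1, the substrate of these kinases, had 1745 and 1757 in Ly49+ cells, against 1884 and 1687 in Ly49- cells. The Ly49+ arrays lay between the Ly49- arrays (log2 fold change -0.03, 95% interval -0.19 to 0.13, limma adjusted p = 0.90). By a likeness of pattern, taken as the Euclidean distance of mean-centred log2 values over 4 arrays, the genes nearest to Cdkn2c were Rbm45 (0.0121), Il1a (0.0131) and Abcg2 (0.0226). Il1a was read below the highest bacterial control, at 25.6 in Ly49+ and 21.3 in Ly49- cells, and none of these genes passed the test (adjusted p of 0.38, 0.32 and 0.35). They were picked for values like those of Cdkn2c, so that outcome was largely set by the choice and adds no support.

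**Figure D2:**
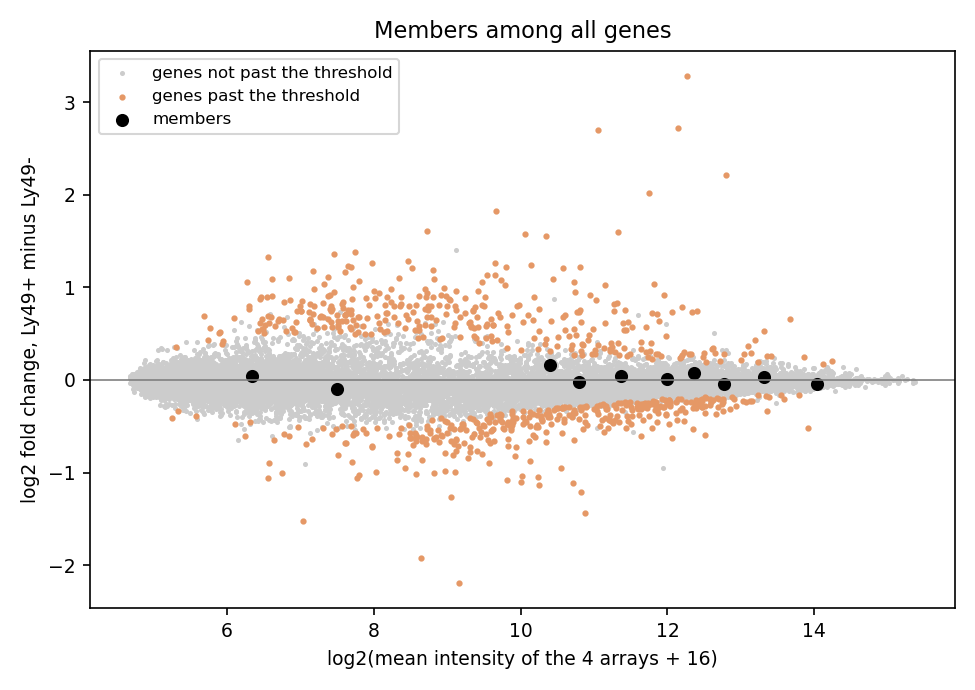
Log2 fold change (Ly49+ minus Ly49-) against log2 mean intensity for all 18193 genes, with genes past the threshold in orange and the 10 members in black. The members lie between -0.10 and 0.16, within the grey band of genes that did not pass.

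Tested one by one among all 45037 probe sets, 0 of the 25 member probe sets passed limma's test, and 4 had an unadjusted p under 0.05. Over all probe sets 1.19% passed and 13.3% had an unadjusted p under 0.05. The groups did not overlap in 11 of the 25, 5 higher and 6 lower in Ly49+ cells, against 44.9% of all probe sets. In Cdk4, Cdkn1b and Rb1, all probe sets of the gene had differences of the same sign. In Ccnd2, Ccnd3 and Cdkn1a they had both signs, and in Cdk6 they had the same sign with different sizes.

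Ccnd2 was read by 7 probe sets, with log2 fold changes from -0.19 to 0.03. The lowest were those of 1455956_x_at, at 8715 and 9185 in Ly49+ cells, against 9780 and 10681 in Ly49- cells, and of 1416122_at, at 8853 and 9473 in Ly49+ cells, against 9802 and 10976 in Ly49- cells. Both probe sets were lower on each Ly49+ array, by log2 fold changes of -0.19 (95% interval -0.32 to -0.06, limma adjusted p = 0.20) and -0.18 (95% interval -0.33 to -0.03, adjusted p = 0.29). Per the platform annotation, 1416122_at was designed from the same RefSeq transcript as 3 other Ccnd2 probe sets, 1416123_at, 1416124_at and 1448229_s_at. Those 3 differed by 0.01, 0.01 and 0.03, with overlapping groups.

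The 2 member probe sets with the largest differences were each the dimmest of their gene. The third Cdk6 probe set, 1460291_at, read 103 and 115 in Ly49+ cells, against 71.3 and 74.8 in Ly49- cells. It was 1.40-fold higher with no overlap (95% interval 1.17 to 1.68, unadjusted p = 0.0030, limma adjusted p = 0.12), and its Ly49- values lay close to the highest bacterial control. Per the platform annotation, 1460291_at is the only Cdk6 probe set designed from a RefSeq transcript. The brighter Cdk6 probe sets, which share 1 other source sequence, differed by 0.04 and 0.08 on the log2 scale. The third Ccnd3 probe set, 1444323_at, read 169 and 217 in Ly49+ cells, against 338 and 270.4 in Ly49- cells. Both Ly49+ arrays were lower (log2 fold change -0.62, 95% interval -0.996 to -0.24, unadjusted p = 0.0063, limma adjusted p = 0.16), whereas the brighter Ccnd3 probe sets differed by 0.08 and -0.01. Which part of each transcript these probe sets read was not analysed here.

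**Figure D3:**
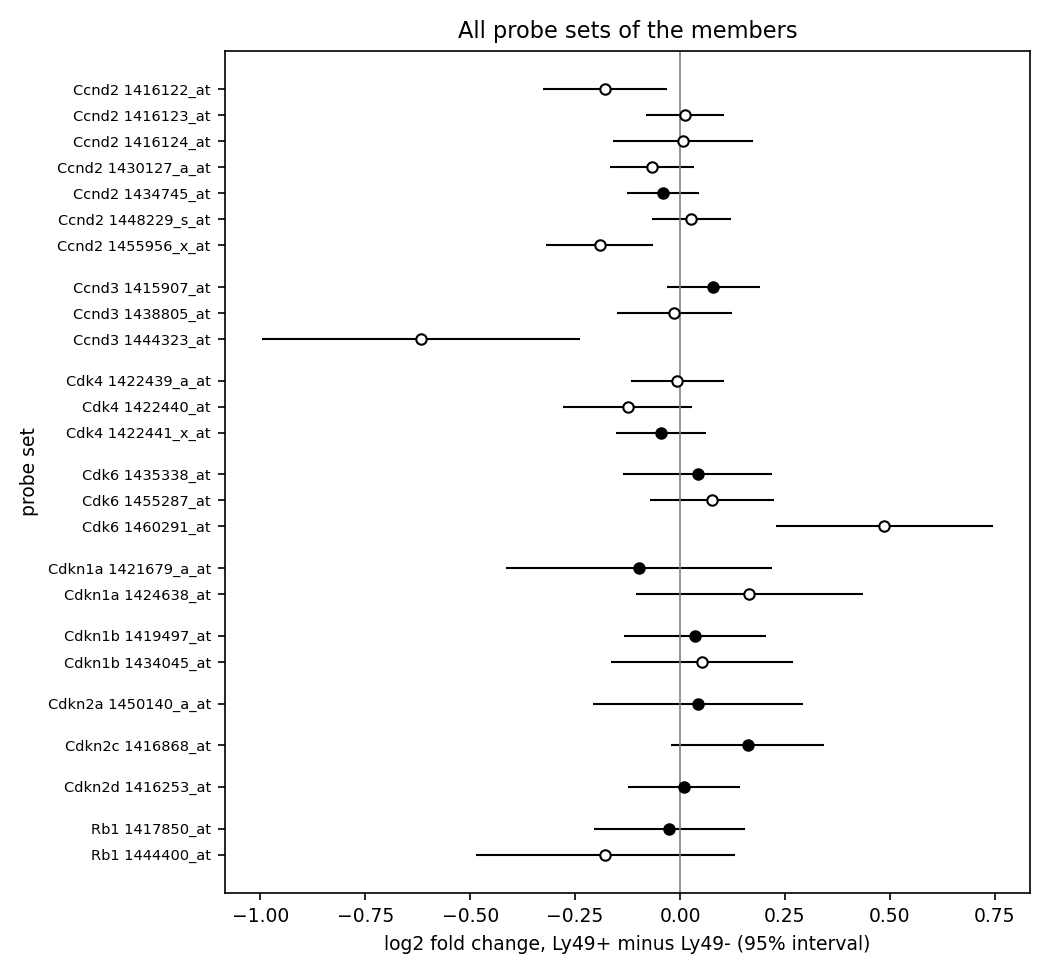
Log2 fold change (Ly49+ minus Ly49-) with its 95% interval for each of the 25 probe sets, with the brightest probe set of a gene filled. Most intervals cross 0, and the 4 that do not are 2 Ccnd2 probe sets and the third Ccnd3 probe set on the lower side and the third Cdk6 probe set on the higher side.

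Around these genes, 50 of 51 other regulators of the G1 to S transition were measured. In Ly49+ cells 1 of them rose, 5 fell and 44 missed the threshold, and the list median was -0.05, beside -0.04 for all genes. The calls upward and downward were 1.93% and 2.04% of all genes. E2f2, an activating E2F factor, had 929 and 888 in Ly49+ cells, against 1400.4 and 1394 in Ly49- cells, a log2 fold change of -0.61 ± 0.07 SE (limma adjusted p = 0.0028). E2f8, a repressor of E2F targets, fell by 0.65 (adjusted p = 0.0064), and E2f6, a repressor of the same family, by 0.30 (adjusted p = 0.039). Cdkn3, a phosphatase that acts on CDK2, fell by 0.70 (adjusted p = 0.0083), at 250.5 and 281 in Ly49+ cells, against 441 and 444 in Ly49- cells. Cks1b, a small CDK-binding protein that helps degrade p27, fell by 0.21 (adjusted p = 0.027). Mxd1, which competes with MYC for its partner MAX, was the gene that rose, at 2788 and 2646 in Ly49+ cells, against 2156 and 2080.5 in Ly49- cells (log2 fold change 0.36, adjusted p = 0.012). Over 13 alternatives, E2f2 passed in 11, E2f8 and Cdkn3 in 10, Cks1b in 8, Mxd1 in 7 and E2f6 in 6. Averaging over a gene's probe sets ended the calls of Mxd1 (0.19, adjusted p = 0.19) and E2f6 (-0.17, 0.25).

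The closest relatives of the members did not pass with all arrays and the brightest probe set. They are named after their values were seen. Ccnd1, the third D-type cyclin gene, differed by 0.15 (limma adjusted p = 0.39), and the S-phase kinase gene Cdk2 by -0.16 (0.35). The E-type cyclin genes Ccne1 and Ccne2, which are themselves driven by E2F, differed by -0.23 and -0.27 (adjusted p = 0.088 and 0.22). Ccne1 passed on averaging over its probe sets (-0.29, adjusted p = 0.037) and without probe sets ending in _x_at or _s_at (-0.35, 0.042).

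Of 17 measured E2F targets of S phase, out of 18 listed, 8 were lower in Ly49+ cells, 0 were higher and 9 did not pass. Over all genes 2.04% were called lower. In the fit of the brighter genes alone, 8 of 16 targets and 356 of 9096 genes were called lower. The list was chosen with earlier results of these data known. The list median was -0.27 and all 17 differences were negative, beside a median of -0.04 and 11883 negative differences among all 18193 genes. Pola1, the catalytic subunit of DNA polymerase alpha, had 411 and 495 in Ly49+ cells, against 850.2 and 723 in Ly49- cells, a log2 fold change of -0.77 ± 0.12 SE (limma adjusted p = 0.0094). Both Ly49+ arrays lay below both Ly49- arrays. Rrm1, the large subunit of ribonucleotide reductase, fell by 0.45, thymidine kinase Tk1 by 0.40, primase Prim1 by 0.30, and the helicase subunits Mcm6 and Mcm7 by 0.27 and 0.24 (adjusted p between 0.0087 and 0.020). Averaging over a gene's probe sets ended the calls of Pola1 (-0.36, adjusted p = 0.090), Rrm1 (-0.22, 0.19) and Mcm6 (-0.12, 0.31). Over 13 alternatives Tk1 passed in 9, Pola1, Rrm1, Prim1 and Mcm7 in 8 and Mcm6 in 7. On the same fit the G1 genes had a median of 0.02 and 0 calls, and whether the lists differ from each other was not tested. Leaving out 1 Ly49+ array left 2 (replicate 1) or 1 (replicate 2) of these 17 targets called, and 2 of the 50 regulators in either case. Leaving out either Ly49- array left 0 of the 17 and 0 of the 50.

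**Figure D4:**
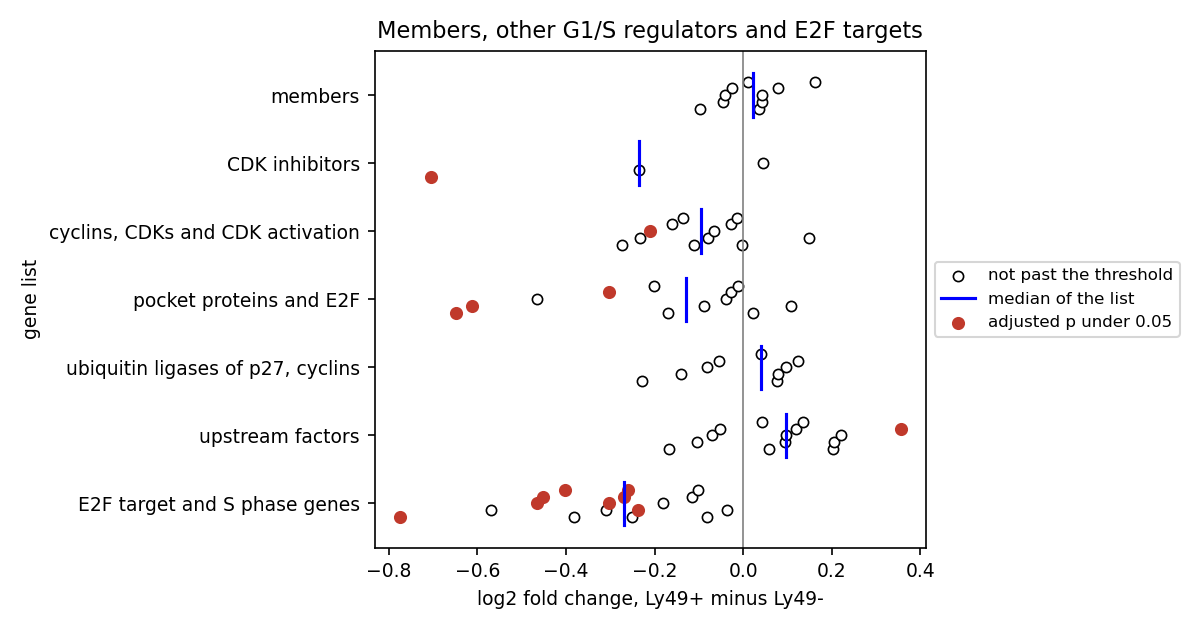
Log2 fold change (Ly49+ minus Ly49-) of each measured gene in the member list, in the other G1 to S regulators by role and in the E2F targets, with genes past the threshold in red and each list's median as a blue line. The members cluster around 0 with none in red, and the E2F targets lie below 0 with 8 in red.

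Genes listed here as markers of other cells moved on the same arrays, where 1.93% of all genes were called higher and 2.04% lower. Of 13 measured myeloid markers, 9 were higher and 2 lower in Ly49+ cells, with summed intensities of 16153 to 17445 in Ly49+ and 11583 to 11718 in Ly49- arrays, and Itgam lay below the highest bacterial control on all arrays. Of 8 NK-cell markers 4 were higher, with sums of 52495 to 53337 in Ly49+ and 50417 to 50716 in Ly49- arrays, and Ncr1 lay below that control. The brightest in these sums were Nkg7 and Klrd1 (means of 24621 and 19292 in Ly49+ cells, and of 24280 and 17574 in Ly49- cells), and neither passed. Gzma was lower, at means of 2648 in Ly49+ and 5213 in Ly49- cells, and did not pass (limma adjusted p = 0.052). Of 10 B-cell markers 1 was higher and 1 lower, with sums of 18614 to 19894 in Ly49+ and 18757 to 19747 in Ly49- arrays, and Pax5, Cr2 and Fcer2a lay below the control. Ighm was the brightest of these (means of 14015 in Ly49+ and 14929 in Ly49- cells). The higher one was Cd22 (2.07-fold) and the lower one Cd79b (0.82-fold). Of 8 dendritic-cell markers 1 was higher, with sums of 3758 to 4019 in Ly49+ and 3679 to 3889.9 in Ly49- arrays, and Cd209a lay below the control. No marker passed among 3 of CD4 T cells (0 at an unadjusted p under 0.05) or 5 of red cell precursors (1 at an unadjusted p under 0.05). Bulk RNA does not show whether these genes were read from other cells or from the sorted CD8 T cells. Any part of other cells, or of the 18S difference given above, in the differences of the E2F targets was not tested. In bulk RNA fewer cells of a type cannot be told apart from less RNA per cell.

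Promoters are shown for Cdkn2c and Cdkn2a, and for Pola1 and E2f2, which fell in Ly49+ cells. Both Cdkn2 windows held GC boxes, and only that of Cdkn2a held a match to the E2F letters searched. The sequences are from RefSeq (GRCm38.p6) and run from 250 bases before to 50 after the start of the gene, 5′ to 3′ along its strand, using the most upstream start where a gene has several. Cdkn2c lies at chr4:109666707-109667006 and Cdkn2a at chr4:89294570-89294869, both on the minus strand, Pola1 at chrX:93632106-93632405 on the minus strand, and E2f2 at chr4:136172024-136172323 on the plus strand. Capitals mark exact matches to letters bound by E2F factors (TTTCCCGC, TTTGGCGC, TTTCGCGC or TTTGCCGC) and to the GC box GGGCGG bound by SP1. Both strands were searched, and shorter or other variants of the E2F letters were not.
Cdkn2c: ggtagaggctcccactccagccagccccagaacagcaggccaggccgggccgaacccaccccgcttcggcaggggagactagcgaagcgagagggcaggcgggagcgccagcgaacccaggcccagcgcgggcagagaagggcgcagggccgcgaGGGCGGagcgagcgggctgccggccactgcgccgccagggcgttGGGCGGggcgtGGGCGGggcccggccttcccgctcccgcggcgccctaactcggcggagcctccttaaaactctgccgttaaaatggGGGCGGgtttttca
Cdkn2a: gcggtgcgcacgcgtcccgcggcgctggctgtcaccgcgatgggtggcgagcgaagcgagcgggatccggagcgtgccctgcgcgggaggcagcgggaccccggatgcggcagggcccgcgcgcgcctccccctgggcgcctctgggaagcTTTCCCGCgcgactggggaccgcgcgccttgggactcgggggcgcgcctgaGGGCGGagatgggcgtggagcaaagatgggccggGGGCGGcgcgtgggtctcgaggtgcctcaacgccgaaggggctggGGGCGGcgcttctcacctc
Pola1: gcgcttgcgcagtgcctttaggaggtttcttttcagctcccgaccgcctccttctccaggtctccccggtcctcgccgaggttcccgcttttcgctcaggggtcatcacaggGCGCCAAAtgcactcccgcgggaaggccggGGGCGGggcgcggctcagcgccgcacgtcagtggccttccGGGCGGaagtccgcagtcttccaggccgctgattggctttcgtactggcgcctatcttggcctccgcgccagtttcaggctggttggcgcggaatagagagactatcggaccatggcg
E2f2: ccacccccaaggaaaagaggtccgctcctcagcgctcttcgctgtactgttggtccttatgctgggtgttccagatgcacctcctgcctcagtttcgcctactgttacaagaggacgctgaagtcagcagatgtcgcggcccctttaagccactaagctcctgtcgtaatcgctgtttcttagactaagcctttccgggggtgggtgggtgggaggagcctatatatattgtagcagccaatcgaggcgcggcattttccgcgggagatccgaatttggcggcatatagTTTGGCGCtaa
The Cdkn2c promoter held 4 GC boxes and 0 E2F matches. That of Cdkn2a held 1 E2F match and 3 GC boxes, that of Pola1 1 E2F match on the opposite strand and 2 GC boxes, and that of E2f2 1 E2F match and 0 GC boxes. No E2F match overlapped a GC box in these 4 promoters. Whether the Cdkn2a start shown is that of p16 or of ARF was not analysed here. Among the G1 genes, 8 of 10 were matched to 12 promoters, and 1 of these promoters, the one shown for Cdkn2a, held E2F letters, as did 2.26% of all 32851 promoters. Of 16 promoters of 15 E2F target genes, 7 held them. Of the 14 E2F targets and other regulators past the threshold in either direction, 4 held them, namely E2f2, Mcm6, Mcm7 and Pola1. Cdc6, Cdt1, Mcm3 and Mcm5 held them too and did not pass. GC boxes were in 9 of the 12 G1 gene promoters, in 12 of the 16 E2F target promoters and in 35.7% of all promoters, and Cdk6 was the matched G1 gene with none in this window.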

How the data were processed

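Groups and replicate numbers came from the sample titles. The authors deposited 1 intensity per probe set and array. Its linear scale was inferred from the values, and the sources used here do not give the summary or scaling method. Per the labels, biotinylated cRNA was made by the Affymetrix protocol. Gene names came from the platform annotation, with symbols checked against RefSeq gene IDs. Of 45101 probe sets, 34945 had 1 symbol, 932 several, 9160 were unlisted and 64 were controls. Each gene was read by its brightest probe set (18193 genes). The test was limma 3.58.1, in R 4.3.3 (package data.table, version 1.17.8), on log2(intensity + 16), which understates the change of dim genes, letting the spread vary with the level, 2 residual and 6.66 prior degrees of freedom. A second fit tested all 45037 probe sets. The code was tested on simulated data. Named were all members, at most 6 genes past the threshold of each further list by smallest p, and the 3 genes nearest the leading member. The members and lists were chosen with earlier results of these data known. Alternatives were quantile normalization, pseudocounts of 1 and 64, brighter features alone, averaging over a gene's probe sets, dropping _x_at and _s_at probe sets, no trend, a robust spread, the replicate number as a block, a threshold of 0.1, and fits without each array in turn, where the lone array of a group took the spread of the other group.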

Additional observations from a re-analysis of the deposited data

How the results depend on the processing

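In each alternative the count of G1 genes called was 0, and in 116 of 128 pairs of a gene and an alternative the sign of its difference was as reported, with 0 past the threshold. The sign turned on averaging over probe sets for Ccnd3 (-0.18) and Cdkn1a (0.034), and after quantile normalization for Rb1 (0.0013), 1422439_a_at of Cdk4 (0.0094) and 1438805_at of Ccnd3 (0.017). Averaging over probe sets also moved Cdk6 from 0.04 to 0.20, without passing (limma adjusted p = 0.18). Leaving out 1 array gave log2 fold changes of -0.030 to 0.11 for Cdk6, -0.23 to 0.036 for Cdkn1a, -0.049 to 0.12 for Cdkn1b, -0.035 to 0.055 for Cdkn2d and -0.10 to 0.053 for Rb1. The Cdkn2a values of -0.046 to 0.13 in these fits come from signal below the bacterial control and give no size. Values that kept their sign but moved by over 1.5 times ran from -0.07 to -0.0099 for Ccnd2, -0.08 to -0.011 for Cdk4, 0.11 to 0.22 for Cdkn2c, 0.084 to 0.22 for Ccnd1 and -0.23 to -0.093 for Cdk2, and 1416122_at of Ccnd2 was -0.098 without Ly49- replicate 2. In the same fits the ranges were -0.013 to 0.037 for 1416123_at and -0.073 to 0.088 for 1416124_at of Ccnd2, -0.037 to 0.025 for 1422439_a_at, -0.10 to 0.21 for 1434045_at of Cdkn1b and -0.049 to 0.022 for 1438805_at. The cause was not tested. Leaving out 1 array called 0 to 2 E2F targets, 0 to 2 other regulators, 0 member probe sets and 100 to 281 of all genes, with fewer samples, against 723 with all 4. Without a trend of the spread the counts were 1 E2F target, 3 other regulators and 370 genes. Averaging over probe sets called 4 E2F targets, and an adjusted p under 0.1 called 1252 genes. The labels tie same-numbered arrays by the number alone and name no shared animal or day, so the main test was unpaired. Across genes, however, the deviations of same-numbered arrays correlated at 0.25 over 2 pairs, a positive value that the unpaired test ignores. With the replicate number as a block, 1533 genes were called, 915 of them lower, the E2F targets and other regulators numbered 11 and 9, Ccne1 passed (0.037), and 1 of 25 member probe sets, 1455956_x_at of Ccnd2, passed (log2 fold change -0.19, adjusted p = 0.038). The third Cdk6 probe set had an adjusted p between 0.062 and 0.42 over its alternatives, and the third Ccnd3 probe set between 0.077 and 0.49. Signal near that of the bacterial controls limits what can be said of Cdkn2a.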
